A study of Danio rerio with 6 samples.

Results

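The genes described here build and run cilia, and were measured by RNA-Seq in zebrafish embryos that lack functional Zrsr2, a protein that helps the minor spliceosome recognise U12-type introns. They were chosen by name: every gene whose symbol begins with *ift*, *bbs*, *dnah*, *dnai* or *cfap* and a number, or with *dnaaf*, *rsph* or *tekt*. This rule uses no measured value. It found 70 of the 31886 genes in the transcript tables, of which 12 are *ift*, 8 *bbs*, 11 *dnah*, 4 *dnai*, 5 *dnaaf*, 5 *rsph*, 21 *cfap* and 4 *tekt* genes. Of these 70 genes, 64 had a mean FPKM (fragments per kilobase of transcript, relative to all mapped fragments) of at least 0.1 over all pools and were tested.

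Cilia are hair-like extensions of the cell that either sense signals or beat. Intraflagellar transport (IFT) trains carry cargo along the ciliary shaft, with kinesin moving them to the tip and dynein back to the base, and the BBSome, named after Bardet-Biedl syndrome, acts as an adaptor that moves membrane proteins out of the cilium. The shaft of a motile cilium, the axoneme, beats by means of dynein arms, which are assembled in the cytoplasm, and is regulated by radial spokes. In zebrafish embryos, motile cilia line the pronephric ducts, the spinal canal and the olfactory pits, and loss of IFT proteins causes kidney cysts and curved bodies.

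The mutant group held 3 pools of *zrsr2*hg129/hg129 embryos, homozygous for a frameshift deletion made with CRISPR/Cas9, taken from in-crosses of heterozygous fish (clutches 3, 4 and 7). The wild-type (WT) group held 3 pools from in-crosses of WT siblings (clutches 12, 13 and 15). All were of strain Tab5, at 3 days post fertilization (dpf), and each pool combined the bodies of 10 embryos whose heads had been cut off for genotyping. The genotype cannot be told apart from clutch, type of cross or RNA integrity, which was higher in every WT pool than in every mutant pool. In pooled bodies, fewer cells of a type and less RNA per cell cannot be told apart either.

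Summed over transcripts, coverage times length came to 8.855 to 9.168 gigabases in mutant pools and 7.505 to 9.255 gigabases in WT pools. FPKM do not show how many fragments stand behind a value, and counting errors are left out. The targeted gene *zrsr2* had 0.513, 0.793 and 1.06 FPKM in mutant pools and 1.38, 1.5 and 1.39 FPKM in WT pools, which did not overlap, but the difference did not pass the test (log2 fold change -0.62, SE 0.23, limma adjusted p = 0.176). Median-of-ratios scaling factors were 0.8595 to 0.9801 in mutant pools and 1.067 to 1.117 in WT pools. FPKM are therefore given as deposited, and log2 fold changes of mutant over WT after scaling, on a log2(FPKM + 0.1) scale that understates the change of low genes. Without scaling, the median log2 fold change over all 20018 genes tested moved to -0.19, from 0.01 after scaling.

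Markers of other tissues moved in part with the groups. The summed FPKM of 8 lens genes was 0.326 to 0.859 in mutant pools and 0.777 to 1.14 in WT pools, with *lim2.1* at 0 in every pool. That of 10 photoreceptor genes was 0.357 to 0.599 in mutant pools and 0.211 to 0.414 in WT pools. Of these, *opn1sw1*, *opn1lw1* and *arr3a* were at 0 throughout. Markers of the eye, which was removed with the head, were thus low but not all near 0. The lens gene *crybb1* had 0.22, 0.0507 and 0 FPKM in mutant pools and 0.297, 0.65 and 0.501 FPKM in WT pools. The photoreceptor gene *gnat2* had 0.216, 0.159 and 0.208 FPKM in mutant pools and 0.066, 0.0994 and 0.0709 FPKM in WT pools. Other genes of these lists lay the other way. The lens gene *cryaa* averaged 0.314 FPKM in mutant pools and 0.255 FPKM in WT pools. The photoreceptor gene *pde6c* averaged 0.0893 FPKM in mutant pools and 0.136 FPKM in WT pools. Of the 2 lens genes tested 1 was above 0 and 1 below, and of the 3 photoreceptor genes 2 and 1. Such levels lie within the range of the ciliary genes. Among ciliated tissues, 11 pronephros genes summed to 44.9 to 52.2 FPKM in mutant pools and 54.6 to 62.7 FPKM in WT pools, although 7 of the 10 tested had log2 fold changes above 0 after scaling. The sum of 7 hair cell genes was 58.5 to 98.9 FPKM in mutant pools and 104 to 143 FPKM in WT pools, with *myo7aa* at 0 in every pool, and 0 of the 6 tested were above 0. Nearly all of this sum was *pvalb9*, which averaged 74.3 ± 20.7 FPKM in mutant pools and 126 ± 22 FPKM in WT pools (SD, n = 3 each). The groups did not overlap for *pvalb9* as deposited but overlapped after scaling (log2 fold change -0.56). The same held for *cdh17*, the most abundant of the pronephros genes. It averaged 28.7 FPKM in mutant pools and 39.2 FPKM in WT pools (log2 fold change -0.22). The sums given here are as deposited, without scaling between pools. The sum of 7 neuron genes was 75.9 to 105 FPKM in mutant pools and 81.2 to 110 FPKM in WT pools. The 4 floor plate genes in the tables summed to 9.76 to 11 FPKM in mutant pools and 8.67 to 11.3 FPKM in WT pools, among them *shha*, with 4.35, 4.93 and 5.29 FPKM in mutant pools and 3.43, 3.12 and 3.99 FPKM in WT pools (log2 fold change 0.68, limma adjusted p = 0.0481, and 0.12 without scaling). The part of these tissues in the results below was not tested.

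The ciliary genes were expressed at a low level, and few of their differences between the genotypes passed the test. Over the transcripts that carry a gene name, the mean FPKM of all 70 ranged between 0.0364 and 6.40, with a median of 0.488. The median of all genes tested was 1.49, but this leaves out genes with a mean below 0.1 FPKM. Among tested genes alone, 46 of the 64 ciliary genes had a mean FPKM below 1, against 8218 of all 20018 genes. Of the 64 genes tested, 1 was called (limma adjusted p below 0.05 and a log2 fold change of 1 or more in either direction), the transport gene *ift88*, which rose. Across all genes, 2.8% were called, 0.899% as higher and 1.9% as lower in mutants, and 3.69% had an adjusted p below 0.05. No ciliary gene was called as lower with limma, and 1, *tekt3*, was lower at an unadjusted p below 0.05. With transcripts that carry no gene name added, *ift80* was called as higher as well, while 4.41% of all genes were called.

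Most of the other ciliary genes leaned towards higher values in mutants by amounts that did not pass the test. The log2 fold change was above 0 for 53 of the 64 genes and below 0 for 11, while it was above 0 for 51.2% of all genes. The median log2 fold change of the 64 genes was 0.30, against 0.01 for all genes. At an unadjusted p below 0.05, 12 ciliary genes were higher and 1 was lower, against 10.7% and 12.3% of all genes. The number of higher ones depended on single pools. It was 2 without WT clutch 12 (against 7.91% of all genes in that fit), 6 without WT clutch 13 (8.27%), 7 without mutant clutch 3 (11.8%) and 9 to 12 without any one of the other pools. After scaling, all mutant pools lay above all WT pools for 20 of the 64 genes and below them for 2, against 14.8% and 15.8% of all genes.

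In FPKM as deposited, the log2 fold changes of the ciliary genes and of all genes both moved down. Without scaling, 39 genes were higher and 25 lower, with a median log2 fold change of 0.09, against a median of -0.19 and a share of 33.0% higher among all genes. At an unadjusted p below 0.05, 2 ciliary genes were then higher and 3 lower, against 4.69% and 21.4% of all genes. As deposited, all mutant pools lay above all WT pools for 11 of the 64 genes and below them for 6, against 6.03% and 26.8% of all genes. The FPKM of the members summed to 79.4, 74.9 and 72.8 in mutant pools and to 64.5, 69.9 and 77.8 in WT pools, so that WT clutch 15 lay within the mutant range.

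A few pools held most of the extremes. After scaling, the mutant pool of clutch 3 was the highest of the 6 for 30 of the 64 genes (46.9%, against 20.3% of all genes), and the WT pool of clutch 12 was the lowest for 27 (42.2%, against 15.7%). Without mutant clutch 3, 49 of the genes tested were higher with a median log2 fold change of 0.25, and without WT clutch 12, 52 were higher with a median of 0.23.

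**Figure D1:**
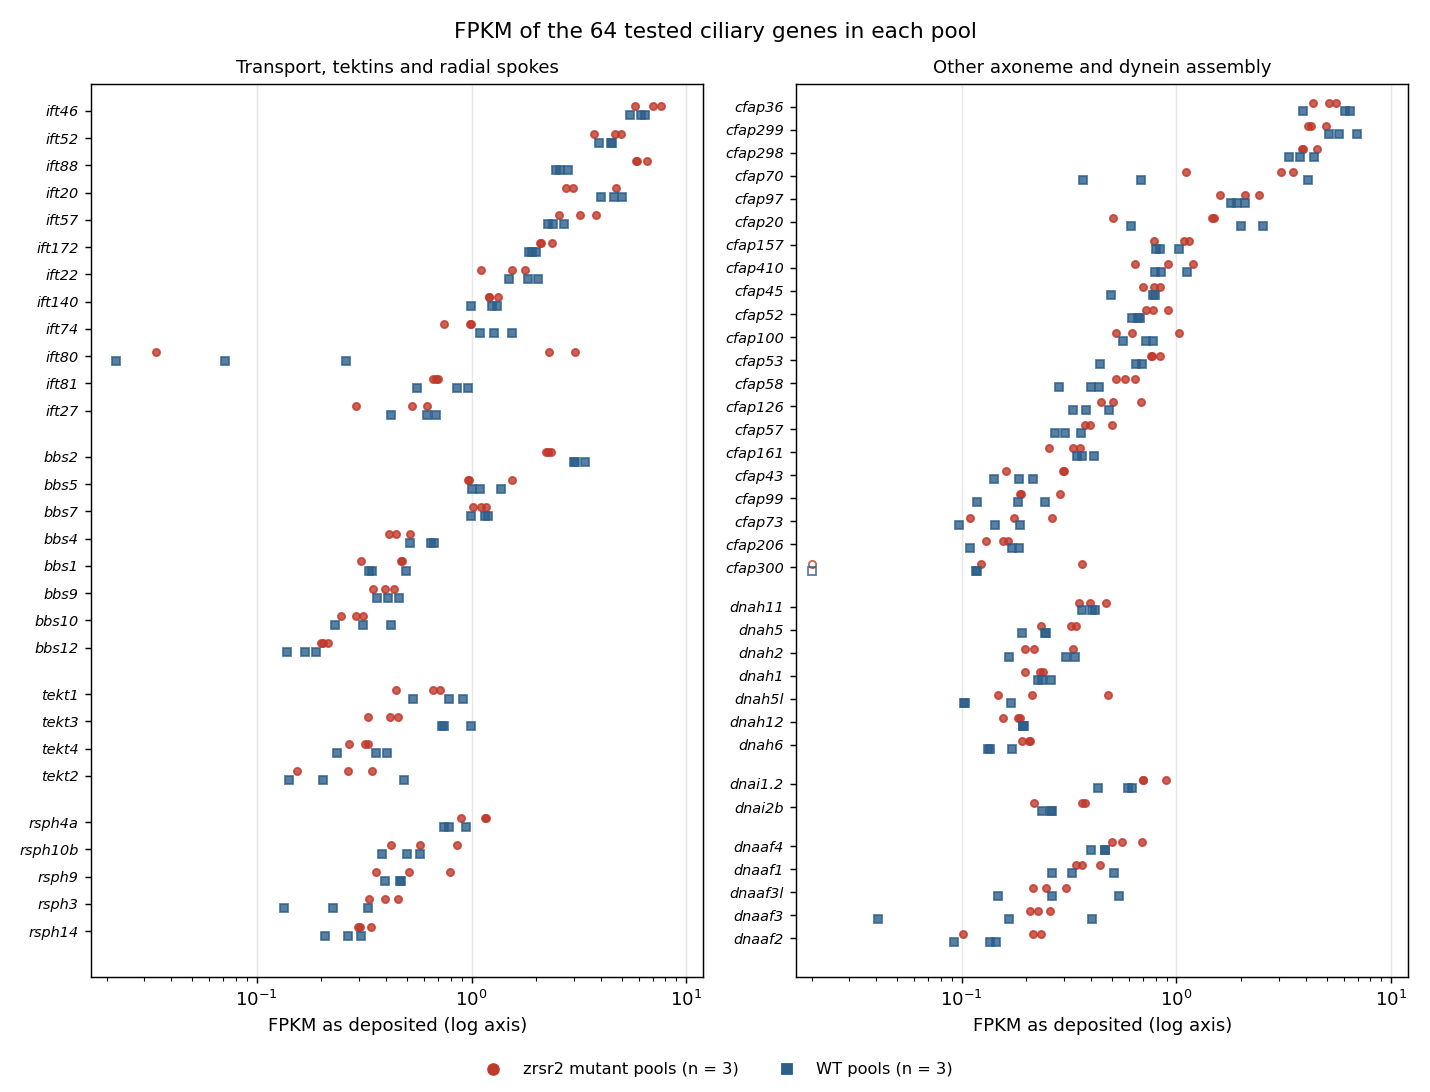
FPKM as deposited (log axis) of the 64 tested ciliary genes, by subgroup and in order of mean FPKM. Each red circle is 1 mutant pool and each blue square 1 WT pool (n = 3 each), and open symbols at the left edge are pools at 0. The groups are clearly apart for *ift88*, and *ift80* over named transcripts is spread over both groups. *tekt3* and *bbs2* are among the 6 genes with every mutant pool below every WT pool as deposited.

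The 20 transport genes, which code for IFT and BBSome proteins and their chaperones, had a median log2 fold change of 0.20, with 14 above 0. Without scaling the median was -0.01 and 9 were above 0. The 44 tested genes of the axoneme and of dynein assembly had a median of 0.36, with 39 above 0, and of 0.20 without scaling, with 30 above 0. The difference between these classes was not tested.

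**Figure D2:**
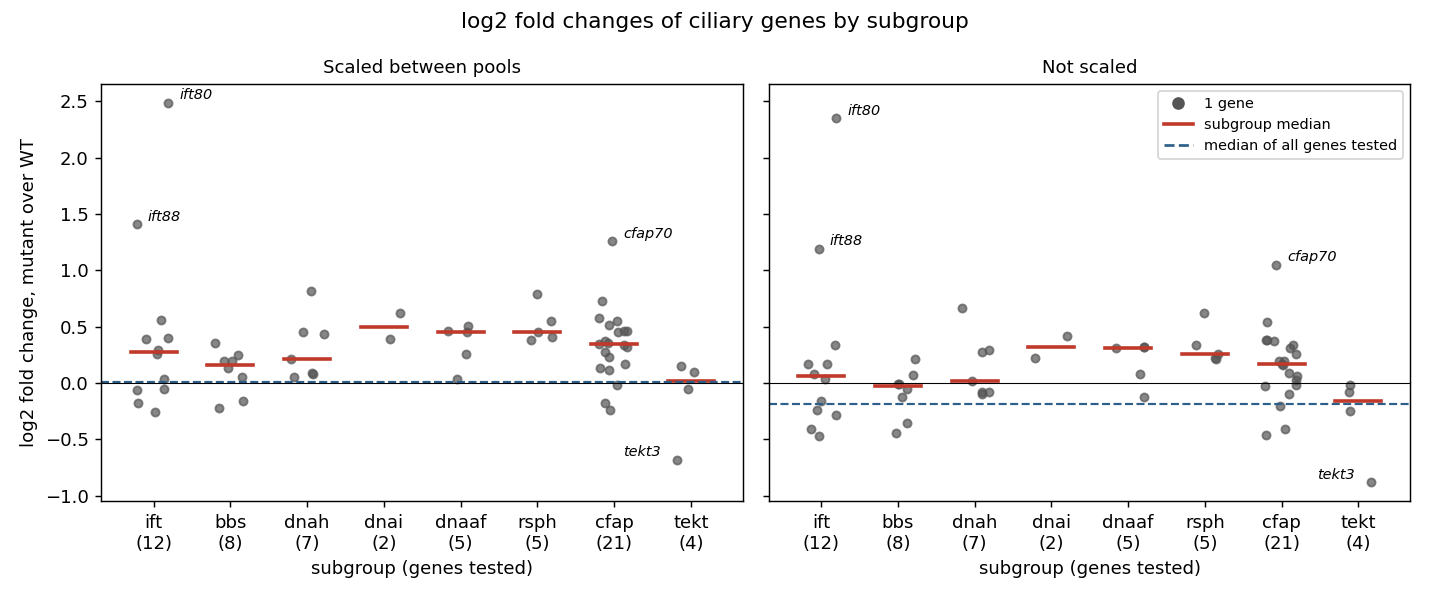
log2 fold changes (mutant over WT) of the 64 tested ciliary genes by subgroup, after scaling (left) and without scaling (right). Each point is 1 gene, red bars are subgroup medians, and the dashed line is the median of all genes tested, 0.01 after scaling and -0.19 without. After scaling the subgroup medians lie between 0.02 (*tekt*) and 0.50 (*dnai*).

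*ift88* codes for a core subunit of the IFT-B complex, whose loss in zebrafish leads to the loss of cilia. On chromosome 9 of GRCz11 it spans bases 21365043 to 21383489 of the minus strand, and shares 590 bases with *il17d* on the same strand, which averaged 0.169 FPKM. *ift88* and *ift80* are among the genes for which the study lists a U12-type intron. *ift88* had 6.59, 5.89 and 5.81 FPKM in mutant pools and 2.47, 2.82 and 2.58 FPKM in WT pools. Every mutant pool lay above 5 FPKM and every WT pool below 3 FPKM, and within a genotype the pools were close together. After scaling, *ift88* was 2.66-fold higher in mutants (log2 fold change 1.41, 95% interval 1.06 to 1.76, SE 0.15, limma adjusted p = 0.0106, n = 3 pools each). The log2 fold change was 1.19 without scaling and still called, where 4.53% of all genes were.

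Leaving out a WT pool moved *ift88* across the threshold without moving its size. The log2 fold change was 1.38 without WT clutch 12 (limma adjusted p = 0.059) and 1.46 without WT clutch 13 (limma adjusted p = 0.0506), while it was called without any one of the other 4 pools. Over all alternatives, the adjusted p of *ift88* ranged between 0.00373 and 0.059. In mutants, *ift88* was the second highest of the 12 *ift* genes in mean FPKM over named transcripts, after *ift46*. In WT pools *ift46*, *ift20* and *ift52* lay above it.

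The rise of *ift88* was carried by its main transcript. ENSDART00000038923, with 26 exons and 2941 nucleotides, had 4.67, 5.41 and 5.03 FPKM in mutant pools and 1.92, 2.65 and 2.14 FPKM in WT pools. It was the only 1 of 82 transcripts tested at the ciliary loci to be called, against 1.22% of all 43672 transcripts tested (log2 fold change 1.37, SE 0.16, limma adjusted p = 0.029), and with any one pool left out none was called. A second transcript with 27 exons, ENSDART00000110943, had 0.881, 0.431 and 0.724 FPKM in mutant pools and 0.451, 0.171 and 0.340 FPKM in WT pools (log2 fold change 1.09, limma adjusted p = 0.293). The main transcript held 70.9%, 91.9% and 86.5% of the FPKM of *ift88* in mutant pools and 77.6%, 93.9% and 82.9% in WT pools. These shares overlapped (exact permutation p = 0.9), so the make-up of *ift88* did not differ beyond the spread between pools.

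*ift80*, which codes for another IFT-B subunit and in humans is mutated in skeletal ciliopathies, spans bases 1494493 to 1534258 of chromosome 15, also on the minus strand. Summed over the transcripts with its name, it had 3.02, 0.0341 and 2.29 FPKM in mutant pools and 0.259, 0.0712 and 0.0222 FPKM in WT pools. The mutant pool of clutch 4 thus lay among the WT pools, and the difference was not called (log2 fold change 2.49, SE 1.24, limma adjusted p = 0.287). Without mutant clutch 4 it was called (log2 fold change 3.99, limma adjusted p = 0.0353). The locus holds 4 nearly identical transcripts of 20 exons, between which reads cannot be divided with certainty, and 2 of them were assembled from the reads and carry no gene name.

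Counted together with the unnamed transcripts, *ift80* separated the genotypes. It then had 6.14, 4.25 and 5.05 FPKM in mutant pools and 2.40, 2.5 and 3.04 FPKM in WT pools. Every mutant pool lay above every WT pool, and *ift80* was called as higher (log2 fold change 1.12, SE 0.20, limma adjusted p = 0.0205). In this fit 2 ciliary genes, *ift88* and *ift80*, were called, while 4.41% of all 21114 genes tested were, 1.67% as higher. The unnamed transcripts held 50.9%, 99.2% and 54.6% of the FPKM of *ift80* in mutant pools and 89.2%, 97.2% and 99.3% in WT pools (exact permutation p = 0.3, two-sided, where 3 against 3 pools cannot give less than 0.1).

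The 20-exon transcripts of *ift80* fall into a form of 2806 nucleotides and another that is 3 nucleotides longer, with all cut to a common lowest genomic base. The shorter form had 3.01, 3.81 and 2.27 FPKM in mutant pools and 0.247, 2.43 and 3.02 FPKM in WT pools. The longer form had 3.12, 0.406 and 2.76 FPKM in mutant pools and 2.14, 0 and 0 FPKM in WT pools. The mutant pools of clutches 3 and 7 thus held about as much of one form as of the other, mutant clutch 4 and WT clutches 13 and 15 held mainly or only the shorter form, and WT clutch 12 held mainly the longer one. The forms did not follow the genotype.

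**Figure D3:**
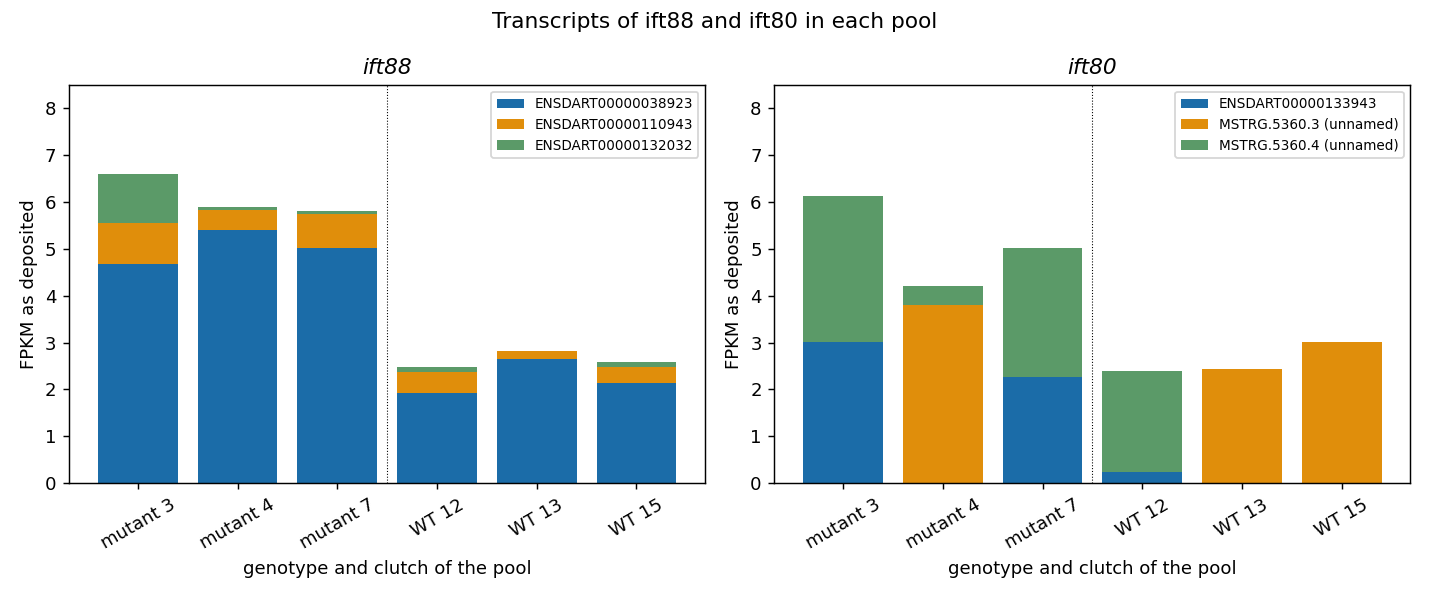
FPKM as deposited of the tested transcripts of *ift88* (left) and *ift80* (right) in each pool, mutant pools left of the dotted line and WT pools right of it. Stacked colours are transcripts, and MSTRG names are transcripts assembled without a gene name. All 3 mutant bars are taller than all 3 WT bars at both loci, and the named transcript of *ift80* is visible in mutant clutches 3 and 7 and in WT clutch 12 only.

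The other *ift* genes did not pass the test. *ift46*, an IFT-B subunit that helps bring dynein arms into the cilium in the alga Chlamydomonas, was the most abundant ciliary gene over named transcripts. It had 7.60, 5.78 and 7.03 FPKM in mutant pools and 5.44, 6.15 and 6.41 FPKM in WT pools, which overlapped as deposited and not after scaling (log2 fold change 0.40, limma adjusted p = 0.225). *ift57* had 3.78, 3.21 and 2.55 FPKM in mutant pools and 2.28, 2.40 and 2.69 FPKM in WT pools (log2 fold change 0.56, limma adjusted p = 0.166). *ift172*, the largest IFT-B subunit, had 2.38, 2.09 and 2.1 FPKM in mutant pools and 1.86, 2.0 and 1.92 FPKM in WT pools, which did not overlap but were close together (log2 fold change 0.39, limma adjusted p = 0.193).

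The IFT-B subunits *ift20*, *ift22*, *ift27* and *ift74* were the *ift* genes below 0. *ift74*, which forms the tubulin-binding module of the complex with *ift81*, had 0.989, 0.743 and 0.995 FPKM in mutant pools and 1.27, 1.54 and 1.09 FPKM in WT pools (log2 fold change -0.26, limma adjusted p = 0.520). Most of this locus lay in a transcript without a name, MSTRG.18998.1, which had 3.23, 2.75 and 2.44 FPKM in mutant pools and 6.34, 3.86 and 5.65 FPKM in WT pools. Every mutant pool of this transcript was below every WT pool as deposited but not after scaling, and the same held for the named transcript. With it added, *ift74* had 3.44 to 4.22 FPKM in mutant pools and 5.40 to 7.61 FPKM in WT pools, and was still not called (log2 fold change -0.60, SE 0.19, limma adjusted p = 0.0954). *ift88* and *ift74*, subunits of the same complex, thus lay on opposite sides, while *ift81* had a log2 fold change of 0.04 after scaling and of -0.16 without.

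The 8 *bbs* genes had a median log2 fold change of 0.16 after scaling and of -0.03 without, and none had an unadjusted p below 0.05 after scaling. *bbs2*, a BBSome subunit and the most abundant of them, had 2.26, 2.34 and 2.22 FPKM in mutant pools and 2.99, 3.03 and 3.36 FPKM in WT pools. All mutant pools lay below all WT pools, as deposited and after scaling, but the difference did not pass the test (log2 fold change -0.22, and -0.44 without scaling; limma adjusted p = 0.343 and 0.0898). *bbs12*, which codes for a chaperonin-like protein needed to assemble the BBSome, lay the other way, with 0.204, 0.215 and 0.199 FPKM in mutant pools and 0.139, 0.167 and 0.189 FPKM in WT pools (log2 fold change 0.36, limma adjusted p = 0.356).

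The axonemal dyneins were among the lowest ciliary genes. The 11 *dnah* genes, which code for the heavy chains that carry the motor, had a median mean FPKM of 0.184, and *dnah3*, *dnah7*, *dnah9* and *dnah9l* were too low to test. All 7 tested were above 0 after scaling, with log2 fold changes of 0.05 to 0.82, and 4 of 7 without scaling. *dnah11*, the most abundant over named transcripts, had 0.350, 0.397 and 0.469 FPKM in mutant pools and 0.365, 0.404 and 0.417 FPKM in WT pools (log2 fold change 0.21, limma adjusted p = 0.539).

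*dnah5l* had the largest log2 fold change of the heavy chains, 0.82 (limma adjusted p = 0.278), with 0.480, 0.213 and 0.147 FPKM in mutant pools and 0.102, 0.17 and 0.104 FPKM in WT pools. This value depended on which transcripts were counted. With the unnamed transcript of the locus added, *dnah5l* had 0.480, 0.544 and 1.18 FPKM in mutant pools and 0.786, 0.718 and 0.774 FPKM in WT pools, and its log2 fold change was 0.04. It then averaged 0.735 FPKM in mutant pools and 0.760 FPKM in WT pools, above *dnah11*. The unnamed transcript has 17 exons and 3632 nucleotides, against 74 exons and 13622 nucleotides in the main named one, and starts upstream of it. It was joined by overlap of its span alone, so it may not belong to *dnah5l*. Among the genes below the filter, *dnah3* averaged 0.0520 ± 0.0167 FPKM in mutant pools and 0.0208 ± 0.00908 FPKM in WT pools (SD, n = 3 each), without overlap and without a test. The groups overlapped for *dnah7*, *dnah9* and *dnah9l*. These averaged 0.09, 0.0593 and 0.0591 FPKM in mutant pools and 0.0906, 0.0614 and 0.0755 FPKM in WT pools.

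The intermediate chain gene *dnai1.2* had 0.697, 0.894 and 0.702 FPKM in mutant pools and 0.597, 0.619 and 0.431 FPKM in WT pools. All mutant pools lay above all WT pools, without passing the test (log2 fold change 0.62, SE 0.21, limma adjusted p = 0.145). *dnai2b* had a log2 fold change of 0.39. *dnai2a*, too low to test, had 0.0935, 0.154 and 0.0824 FPKM in mutant pools and 0.0547, 0.0675 and 0.0540 FPKM in WT pools, also without overlap, and *dnai1.1* averaged 0.0607 ± 0.0542 FPKM in mutant pools and 0.0564 ± 0.0977 FPKM in WT pools (SD, n = 3 each).

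The *dnaaf* genes code for factors that fold and assemble dynein arms before they enter the cilium. All 5 had log2 fold changes above 0, between 0.04 and 0.51, and 4 of 5 without scaling. *dnaaf4*, the most abundant and the furthest from 0, had 0.689, 0.503 and 0.556 FPKM in mutant pools and 0.398, 0.467 and 0.467 FPKM in WT pools. The groups did not overlap, but the difference did not pass the test (log2 fold change 0.51, limma adjusted p = 0.216).

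The *rsph* genes code for radial spokes, which reach from the outer doublets to the central pair and regulate beating. All 5 had log2 fold changes above 0, between 0.38 and 0.79, and all 5 also without scaling, where their median was 0.26. *rsph3*, a gene of the spoke stalk, had 0.334, 0.394 and 0.456 FPKM in mutant pools and 0.134, 0.226 and 0.331 FPKM in WT pools, with the lowest mutant pool just above the highest WT pool (log2 fold change 0.79, SE 0.27, limma adjusted p = 0.150). *rsph4a*, a gene of the spoke head and the most abundant of the 5, had 1.15, 1.17 and 0.891 FPKM in mutant pools and 0.784, 0.743 and 0.940 FPKM in WT pools (log2 fold change 0.55, limma adjusted p = 0.160).

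The *cfap* genes, a mixed group of cilia and flagella associated proteins, had 18 of 21 log2 fold changes above 0, with a median of 0.35. The genes with an unadjusted p below 0.05 were *cfap52*, *cfap53*, *cfap57*, *cfap58* and *cfap126*, all higher. Of these, *cfap58* was furthest from 0, with 0.644, 0.521 and 0.579 FPKM in mutant pools and 0.283, 0.435 and 0.400 FPKM in WT pools (log2 fold change 0.73, SE 0.22, limma adjusted p = 0.120). *cfap53*, which in zebrafish is needed for cilia of the left-right organiser, had 0.763, 0.773 and 0.836 FPKM in mutant pools and 0.441, 0.694 and 0.647 FPKM in WT pools (log2 fold change 0.58, limma adjusted p = 0.156). In both genes, every mutant pool was above every WT pool as deposited. The log2 fold changes of *cfap52*, *cfap57* and *cfap126* were 0.46, 0.52 and 0.55, with limma adjusted p of 0.156, 0.191 and 0.205.

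The *cfap* genes with the highest mean over named transcripts and with the furthest log2 fold changes did not separate the genotypes. *cfap36*, the most abundant over named transcripts, averaged 5.01 ± 0.628 FPKM in mutant pools and 5.47 ± 1.38 FPKM in WT pools (SD, n = 3 each), with a log2 fold change of 0.13 after scaling and of -0.10 without. *cfap70* had the largest log2 fold change, 1.26 (SE 0.85, limma adjusted p = 0.423), with 3.06, 1.11 and 3.49 FPKM in mutant pools and 0.687, 0.369 and 4.10 FPKM in WT pools. WT clutch 15 was the highest of all pools, and the span of *cfap70* lies within those of *coro7* and *cyp2k6* on the same strand. *cfap20* had the lowest, -0.24 (SE 0.60, limma adjusted p = 0.836), with 1.5, 1.47 and 0.508 FPKM in mutant pools and 0.616, 2.52 and 2.0 FPKM in WT pools. On average, 89.4% of the FPKM at the *cfap20* locus in mutant pools and 86.5% in WT pools belonged to a transcript without a name, and with it added the log2 fold change was -0.02. *cfap20* then averaged 10.9 FPKM in mutant pools and 12.4 FPKM in WT pools, above *ift46* and above *cfap36*, which averaged 8.27 FPKM in mutant pools and 8.14 FPKM in WT pools with its own unnamed transcripts.

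Tektins are filament proteins inside the doublet microtubules. Of the 4 genes, 2 were above 0 after scaling and none without, with medians of 0.02 and -0.16, and the difference from the other subgroups was not tested. *tekt3* had 0.328, 0.419 and 0.457 FPKM in mutant pools and 0.745, 0.997 and 0.728 FPKM in WT pools. All mutant pools lay well below all WT pools, and *tekt3* was the ciliary gene with the lowest log2 fold change, but it was not called (log2 fold change -0.68, 95% interval -1.16 to -0.21, SE 0.20, limma adjusted p = 0.110). *tekt1*, the most abundant tektin, had 0.717, 0.659 and 0.443 FPKM in mutant pools and 0.532, 0.788 and 0.911 FPKM in WT pools (log2 fold change -0.05, limma adjusted p = 0.929). *tekt2* had the largest log2 fold change of the 4, 0.15 after scaling and -0.02 without (limma adjusted p = 0.855 and 0.984).

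Of 16 ciliary genes with at least 2 tested transcripts, 4 (*ift20*, *ift140*, *cfap36* and *cfap57*) had a transcript whose share of the locus did not overlap between the groups. This was the case for 29.3% of all 8668 such genes, so the count is close to that of all genes, and none of these transcripts was called. The 4 genes are named after their values had been seen. *ift140*, a subunit of the IFT-A complex that serves transport back to the cell body, had a log2 fold change of 0.29 as a whole. Its 28-exon transcript ENSDART00000188346 had 0.531, 0.599 and 0.214 FPKM in mutant pools and 0, 0 and 0.0285 FPKM in WT pools (log2 fold change 2.35, SE 0.45, limma adjusted p = 0.0913). It held 39.8%, 49.8% and 17.7% of the FPKM of *ift140* in mutant pools and 0%, 0% and 2.29% in WT pools (exact permutation p = 0.1, the smallest that 3 against 3 pools can give). The 29-exon transcript ENSDART00000129889 made up the rest, with 0.802, 0.604 and 0.998 FPKM in mutant pools and 1.32, 0.995 and 1.21 FPKM in WT pools. In these estimates the 28-exon form was thus a sizeable part of *ift140* in every mutant pool and close to absent from WT pools. The spans of both forms overlap, so reads cannot be divided between them with certainty.

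*cfap57*, whose product in Chlamydomonas helps to place an inner dynein arm, showed such a shift at a lower level. Its 18-exon transcript ENSDART00000080900 had 0.394, 0.375 and 0.376 FPKM in mutant pools and 0.109, 0.0945 and 0.0504 FPKM in WT pools (log2 fold change 1.53, SE 0.32, limma adjusted p = 0.106). Its share was 100%, 75.1% and 100% in mutant pools and 40.0%, 26.3% and 16.6% in WT pools (exact permutation p = 0.1). The 11-exon transcript ENSDART00000149309 had 0, 0.124 and 0 FPKM in mutant pools and 0.164, 0.265 and 0.253 FPKM in WT pools (log2 fold change -1.21, limma adjusted p = 0.287). In these estimates the longer transcript held the larger share in mutant pools and the shorter one in WT pools. Their spans overlap, reads cannot be divided between them with certainty, and neither was called.

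*ift20*, the IFT-B subunit that also resides at the Golgi apparatus, had a smaller shift. Its 4-exon transcript ENSDART00000132777 held 0%, 3.06% and 0% of the FPKM of the gene in mutant pools and 9.97%, 4.44% and 7.26% in WT pools (exact permutation p = 0.1). These shares did not overlap, and *ift20* as a whole had a log2 fold change of -0.18. The unnamed transcripts of *cfap36* together held 43.3%, 38.6% and 35.9% of its FPKM in mutant pools and 29.0%, 35.0% and 34.9% in WT pools, a narrow separation (exact permutation p = 0.1).

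**Figure D4:**
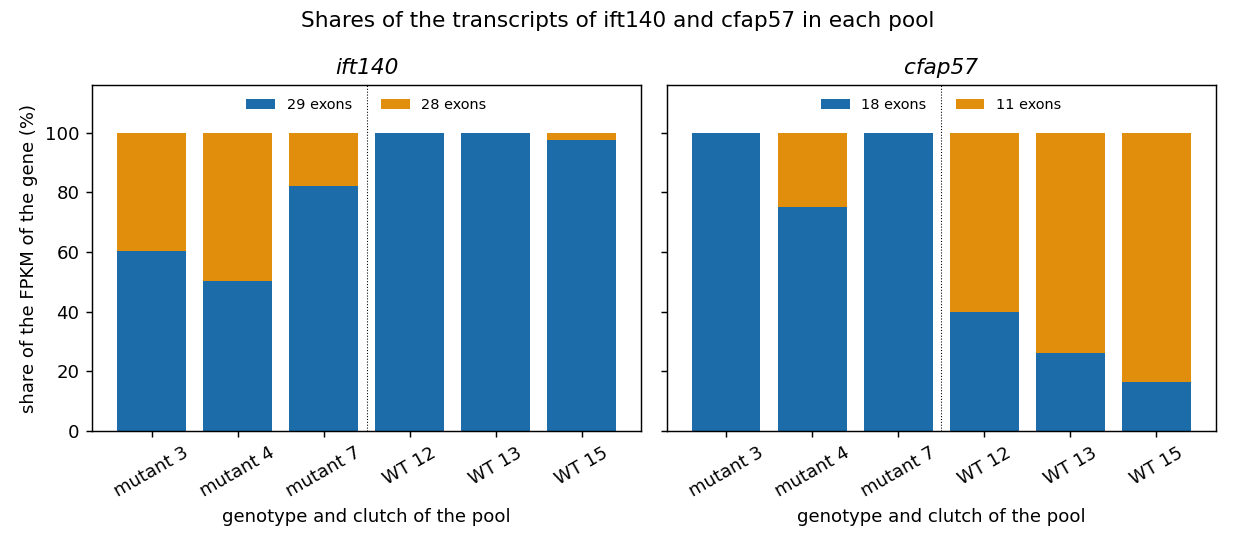
Shares (%) of the FPKM of *ift140* (left) and *cfap57* (right) held by their 2 tested transcripts in each pool, mutant pools left of the dotted line and WT pools right of it. The 28-exon form of *ift140* holds 17.7% to 49.8% in mutant pools and at most 2.29% in WT pools, and the 18-exon form of *cfap57* at least 75.1% in mutant pools and at most 40.0% in WT pools.

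In each list of genes that act with the ciliary genes, more log2 fold changes lay above 0 than below after scaling, and a few genes passed the test. Over all genes, 51.2% were above 0 after scaling and 33.0% without. In the lists of 9 or 11 tested genes, the counts lie only a few genes from such shares, and the difference was not tested. Of 11 other tested genes, listed by symbol for the IFT and BBSome machinery, 7 were above 0 with a median log2 fold change of 0.14. Without scaling, 3 were above 0 and 8 below, with a median of -0.05. After scaling, none was called by limma, while 1 was higher and 1 lower at an unadjusted p below 0.05, against 10.7% and 12.3% of all genes. The lower one was *hspb11*, with 5.90, 9.20 and 3.82 FPKM in mutant pools and 14.0, 12.9 and 11.2 FPKM in WT pools. It was listed by its symbol alone, and whether the zebrafish gene of this name codes for an IFT subunit was not tested. All mutant pools of *hspb11* lay below all WT pools, without passing the test (log2 fold change -0.85, SE 0.31, limma adjusted p = 0.169).

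Among 9 tested genes of the ciliary motors, 6 were above 0, with a median log2 fold change of 0.26. Without scaling, 5 were above 0, with a median of 0.04. *kifap3a*, which codes for the accessory subunit that links kinesin-2 to its cargo, had 5.42, 5.09 and 6.11 FPKM in mutant pools and 3.62, 4.25 and 3.80 FPKM in WT pools. It rose in mutants with an adjusted p below 0.05 but less than the fold needed for a call (log2 fold change 0.72, SE 0.14, limma adjusted p = 0.0466, and 0.0794 without scaling). With any one pool left out, its limma adjusted p was 0.0532 to 0.153. *kif3a*, the motor subunit that binds it, had a log2 fold change of 0.05 after scaling and of -0.17 without.

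Of 39 other tested genes of the axoneme, 34 were above 0 and 5 below, with a median log2 fold change of 0.38, and 25 were above 0 without scaling, with a median of 0.18. None was called by limma, and at an unadjusted p below 0.05, 8 were higher and 1 was lower, against 10.7% and 12.3% of all genes. *ccdc151*, which helps to dock outer dynein arms, and *iqcg*, of the nexin-dynein regulatory complex, were among the 8, with log2 fold changes of 0.63 and 0.67 (limma adjusted p = 0.110 and 0.102). The lower one was *drc3*, of the same complex as *iqcg*, with 0.308, 0.270 and 0.274 FPKM in mutant pools and 0.569, 0.589 and 0.834 FPKM in WT pools (log2 fold change -0.79, limma adjusted p = 0.0950).

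Of 9 tested regulators of ciliary genes, 6 were above 0 and 3 below. Their median log2 fold change was 0.60, and 0.24 with unnamed transcripts added. Those below 0 were *rfx1a*, *rfx3* and *tp73*, with log2 fold changes of -0.25, -0.81 and -0.65. The value of *rfx3* rested on WT clutch 15, with 0.651 FPKM against at most 0.0548 FPKM in every other pool. With unnamed transcripts added it was -0.26. Called were 2 of the 9, both higher, while 2.8% of all genes were called and 0.899% were called as higher. *e2f5*, whose protein drives centriole formation with the multicilin complex, had 0.796, 0.901 and 1.15 FPKM in mutant pools and 0.324, 0.263 and 0.282 FPKM in WT pools. The groups were far apart, and *e2f5* rose (log2 fold change 1.6, SE 0.19, limma adjusted p = 0.0162). *rfx2*, a transcription factor of ciliary genes, had 2.06, 1.90 and 2.56 FPKM in mutant pools and 1.03, 0.761 and 0.792 FPKM in WT pools and rose as well (log2 fold change 1.45, SE 0.20, limma adjusted p = 0.0207). The call of *rfx2* was lost when the unnamed transcripts of its locus were added. It then had 2.64, 2.63 and 2.56 FPKM in mutant pools and 1.69, 2.18 and 2.42 FPKM in WT pools (log2 fold change 0.51, limma adjusted p = 0.0905), while *e2f5* was called in both fits (log2 fold change 1.58, limma adjusted p = 0.00534). Both calls were lost without mutant clutch 7 or without any one of the WT pools, with limma adjusted p of 0.0542 to 0.0811 for *e2f5* and 0.059 to 0.0899 for *rfx2*.

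*foxj1a* and *foxj1b*, the master regulators of motile cilia, leaned the same way without passing the test. *foxj1a* averaged 0.803 ± 0.121 FPKM in mutant pools and 0.582 ± 0.0688 FPKM in WT pools (SD, n = 3 each), with a log2 fold change of 0.60 (limma adjusted p = 0.139). *foxj1b* averaged 0.816 ± 0.0799 FPKM in mutant pools and 0.570 ± 0.115 FPKM in WT pools, with a log2 fold change of 0.66 (limma adjusted p = 0.138). In both genes all mutant pools lay above all WT pools. *tp73*, a further regulator of multiciliated cells, lay the other way, with 0.287, 0.346 and 0.406 FPKM in mutant pools and 0.698, 0.765 and 0.630 FPKM in WT pools (log2 fold change -0.65, limma adjusted p = 0.107).

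**Figure D5:**
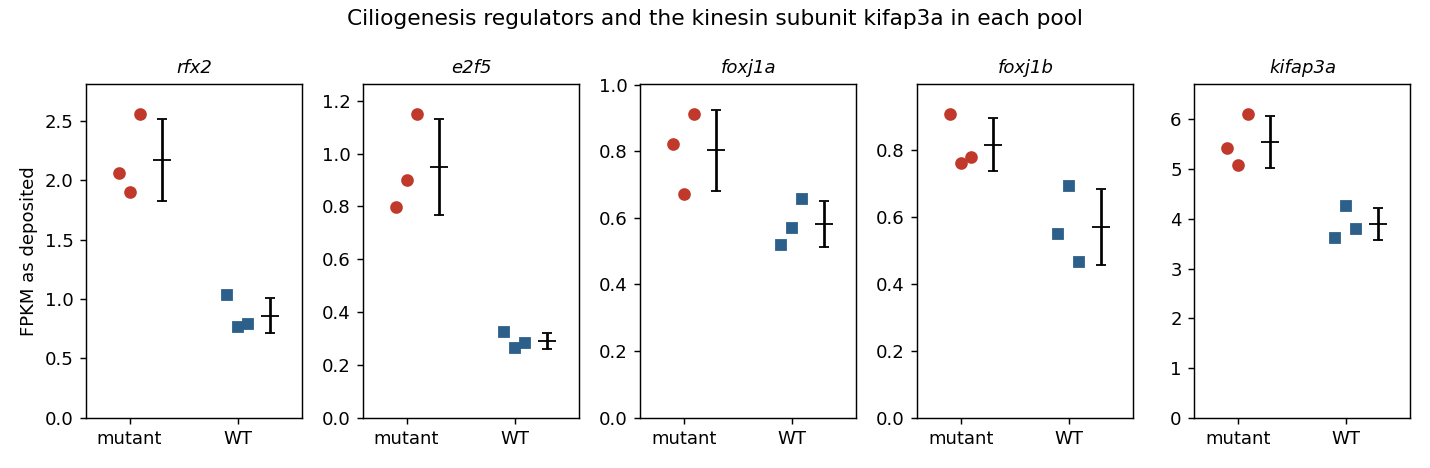
FPKM as deposited of 4 regulators of ciliary genes and of the kinesin subunit gene *kifap3a*, with mutant pools (red circles) left of WT pools (blue squares), n = 3 each. Bars are the mean ± SD, and each panel has its own axis from 0. All mutant pools lie above all WT pools in each panel, and *rfx2* and *e2f5* are the only genes shown that were called. The 3 tested regulators with log2 fold changes below 0 are not shown.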

How the data were processed

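Total RNA-Seq libraries (TruSeq Stranded Total RNA) of 6 pools were analysed. The authors removed reads with adapters or low quality, used HISAT2 2.2.1.0 for alignment to GRCz11, and estimated transcripts of the Ensembl annotation, and some assembled from the reads, with StringTie 2.0.3. The deposited FPKM are those of StringTie. The coverage signal was deposited by the authors as mean read depth per transcript, with no scaling between pools, and served for depth and for the reads estimated for voom. Groups came from the genotype labels. P-values measure the spread between pools, each from its own clutch.

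The tables list 77316 transcripts, of which 17506 carry no gene name. Gene FPKM were summed over same-named transcripts of a chromosome, divided by a median-of-ratios factor per pool and put on the scale log2(FPKM + 0.1). limma 3.58.1 (R 4.3.3; eBayes, mean trend, two-sided tests, adjustment after Benjamini-Hochberg) was fitted to all 20018 genes that averaged 0.1 FPKM or more. Transcripts were fitted likewise. Calls were made at an adjusted p below 0.05 with a log2 fold change of 1 or more in either direction. Shares were compared with exact permutation tests. In an alternative, 12672 transcripts without a name joined the named gene of the same strand that they overlap most. Other alternatives were other pseudocounts (1 and 0.01), other filters, no scaling, voom on estimated reads (coverage and 150-base reads), robust eBayes, and the omission of single pools. The limma test was checked on simulated data with normal spread on the log2 scale and with changes in higher genes only. This check does not cover changes in low genes or the division of reads between transcripts. Python 3.11.15, pandas 2.3.3, numpy 2.4.6 and matplotlib 3.10.9 were used.

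The members, the gene lists and the tests were chosen with earlier results of these data known. Genes named are called members, in each subgroup the most abundant and the furthest to either side, *ift80* and *ift88*, and listed genes with an adjusted p below 0.05. All others named were chosen after their values were seen. Of the members, 14 overlap another named gene on the same strand and 26 one on the other strand, and reads shared by genes on the same strand may be divided between them. A span here covers every copy of a name on a chromosome, so not all of these overlaps need be real. That of *hist1h4l*, for example, covers all of both *dnah2* and *dnaaf1*. Promoter and protein sequences are not printed here. Some genes of the lists are not reported here.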

Additional observations from a re-analysis of the deposited data

How the results depend on the processing

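*ift88* was called in every alternative that kept all pools, with a log2 fold change of 1.15 to 1.44. Over all genes, 560 were called, 180 as higher and 380 as lower in mutants. This count was 280 with a pseudocount of 1, 906 without scaling (132 higher and 774 lower), 931 with unnamed transcripts added (352 higher and 579 lower), and 92 to 510 when single pools were left out, the lowest without WT clutch 12. The count of ciliary genes called was 1, and 2 with unnamed transcripts added, as *ift80* then passed with a log2 fold change of 1.12. When single pools were left out it was 0 to 2, with 0 without WT clutch 12 or WT clutch 13 and 2 without mutant clutch 4. The transcript called at the ciliary loci was 1, and 0 to 0 when single pools were left out. Without scaling, the log2 fold changes of *cfap36* and *tekt2* turned to -0.10 and -0.02, as did those of *ift81* and *kif3a* (-0.16 and -0.17). When single pools were left out, the log2 fold change of *cfap20* was -0.80 to 0.24, of *cfap36* -0.10 to 0.27, of *tekt1* -0.23 to 0.15 and of *tekt2* -0.12 to 0.49. The log2 fold change of *ift80* was then 1.62 to 3.99 and that of *ift88* 1.29 to 1.47. The calls of *e2f5* and *rfx2* were lost with a pseudocount of 1 (log2 fold changes of 0.67 and 0.89). The cause of these changes was not tested. In settings that kept all pools, the log2 fold changes of the 18 ciliary and 4 listed genes named by the rule kept direction and side of the threshold in 158 instances, were reversed in 2, lost a call in 3 and gained one in 1. Leaving out pools was not run with the unnamed transcripts added. A filter of a mean FPKM of at least 1 gave no value for ciliary genes below it, and tested 18 of them. Of these 12 were above 0, with a median of 0.20. No paired analysis was possible because the mutant and WT pools share no clutch numbers. FPKM without counts limit what can be said of the lowest genes.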
